A study of Mus musculus with 58 samples.

Results

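The soleus (SOL), a slow postural muscle of the calf, was compared between untrained mice with a C26 tumour (T) and untrained control mice (C). The arrays were chosen by their labels alone, as the SOL arrays of T and C without whole body vibration training (WBV), and 12 of the 58 arrays of the series met this, 6 from T and 6 from C. Each array held the RNA of 1 mouse, and every one of the 18820 genes with a single symbol was compared. All mice were male CD2F1 hybrids of 6 to 8 weeks that were housed singly. T mice had been given C26 cells, a mouse colon adenocarcinoma line, under the skin of the flank in 0.2 ml of a salt solution (HBSS), C mice had been given the same volume of HBSS without cells, and SOL was taken at day 19. A single implanted line was studied, so T stands for this tumour and not for cachexia in general. For comparison, 11 SOL arrays of trained mice were used (5 T + WBV and 6 C + WBV). These mice had a daily WBV session of 15 min, at 45 Hz and an acceleration of 1.0 g. The 12 arrays of EDL, a fast muscle, from the T and C mice were used as well. The EDL arrays of trained mice (5 T + WBV and 6 C + WBV) entered the fit of both muscles. Those of C + WBV also served to choose genes that differ between SOL and EDL.

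Cachexia is the loss of skeletal muscle and fat that accompanies many cancers. In muscle it is known for tumour and host cytokines that act through STAT3, for circulating glucocorticoids, for FoxO-driven ubiquitin ligases that mark sarcomere proteins for the proteasome, and for autophagy. Fast glycolytic fibres are usually held to waste more than slow oxidative ones, and mouse SOL is built mainly of slow and of fast oxidative fibres.

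The values are log2 intensities made with RMA, so a difference of 1 is a doubling. Over the 12 arrays, the mean level of a gene had a median of 5.00, with the 5th percentile at 2.31 and the 95th at 8.98, and the array medians lay between 4.83 and 5.07. The tissue label was checked against defining fibre genes. Myh7, the slow myosin heavy chain, ranged from 12.33 to 12.48 in SOL of C and from 5.27 to 8.70 in EDL of C. Myh4, the fastest myosin heavy chain, ranged from 6.33 to 7.76 in SOL of C and from 12.83 to 13.02 in EDL of C. The slow troponin T Tnnt1 and the slow calcium pump Atp2a2 were also higher in all 6 SOL arrays of C than in any EDL array of C. Myh4 reached 9.22 on the array of T replicate 4, against at most 7.76 in C, and its T minus C was 0.15 (SE 0.71).

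In SOL, 952 genes were higher in T (5.06% of those tested) and 1629 were lower (8.66%) at an adjusted p under 0.01 in limma, out of 2581 called genes (13.7%). The median T minus C over all genes was -0.01. More than 2-fold differences were fewer, with 210 genes higher (1.12%) and 271 lower (1.44%). All 6 T arrays lay above all 6 C arrays for 745 genes (3.96%) and below them for 1257 (6.68%). The 20 largest rises spanned secreted acute phase proteins, a chemokine, transcription factors of stress and hormone responses, and metal transport, whereas the largest falls were led by genes of tendon and matrix (Kera, Tnmd, Chad, Col1a1 and Col1a2). 43 lists written from textbook knowledge were used to group the genes, and each is described by the number of its measured members that passed, beside the shares of all genes above.

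**Figure D1:**
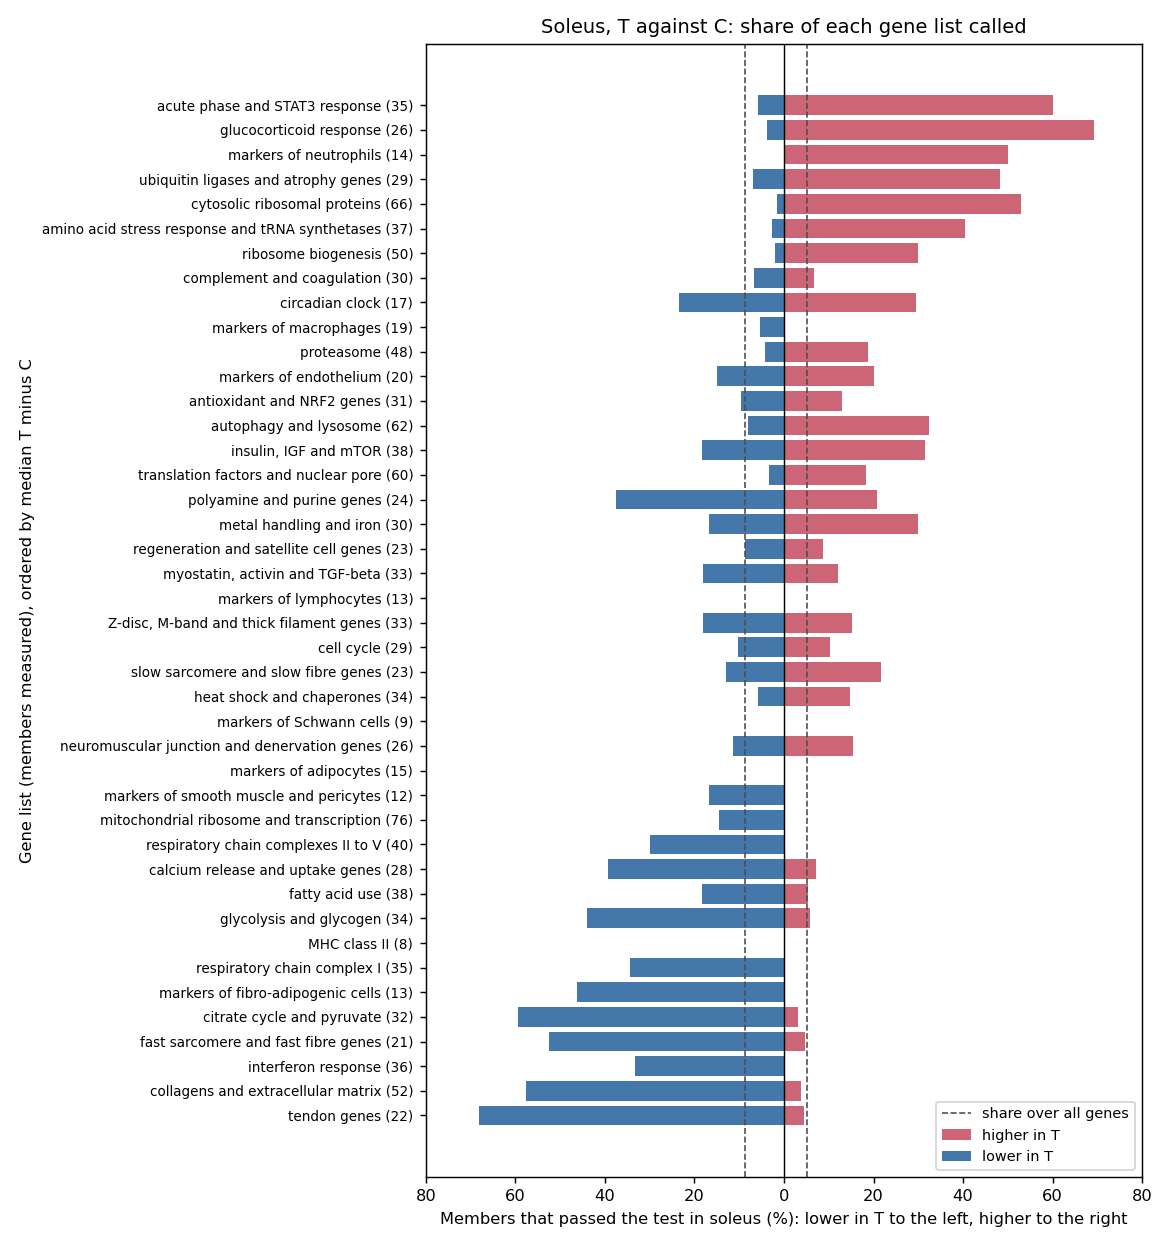
Share of the measured members of each gene list (number in brackets) that passed an adjusted p of 0.01 in SOL of T against C, in percent, with members lower in T to the left and members higher in T to the right. Dashed lines mark the shares over all genes, 5.06% higher and 8.66% lower, and lists are ordered by their median T minus C. Lists of the acute phase, glucocorticoid response and neutrophil markers stand at the top and matrix, tendon and interferon lists at the bottom.

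The T arrays were not alike. Of the 2581 called genes, the array of T replicate 3 was the one nearest to the C mean for 1650 (63.9%), and the other 5 T arrays were nearest for 94 to 291 genes each. The median change over the called genes, taken in the direction of the call, was 0.35 for T replicate 3 and between 0.58 and 0.88 for the other T arrays. The calls were made from the same arrays, so these numbers describe the T group and test nothing. The labels give this mouse a body mass of 91.0% at day 19, relative to the mean of days 0 and 1, whereas the other 5 T mice had between 77.5% and 82.6%. Means over list members of the level minus the mean of C were also taken for each T array. T replicate 3 had the smallest for the glucocorticoid list (0.68, others 1.06 to 1.51). The same held for the ubiquitin ligase and atrophy list (0.38, others 0.67 to 0.86). T replicate 1 was close to C for complex I of the respiratory chain, with a list mean of -0.04. The list mean was -0.07 in T replicate 3 and -0.69 to -0.35 in the other 4. What sets these mice apart was not tested.

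Genes of the acute phase and of STAT3 signalling were among the largest rises, and 21 of 35 measured members rose while 2 fell (median T minus C 1.02). Slc39a14, the zinc and iron importer ZIP14, which is in the metal list and not in this one, had levels of 5.94, 6.10 and 6.16 (lowest, median and highest) in C and of 7.49, 9.28 and 9.81 in T. The groups did not overlap, and T exceeded C 8.25-fold (log2 difference 3.04, SE 0.37, adjusted p = 4.56e-06). Hp, which encodes the haemoglobin-binding haptoglobin, was at 4.39, 4.84 and 6.28 in C and at 6.38, 7.09 and 8.13 in T, a 4.58-fold rise with little space between the groups (adjusted p = 0.00179). The transcription factors Cebpd and Cebpb rose 6.45-fold (adjusted p = 2.60e-06) and 2.10-fold (adjusted p = 8.98e-05), and neither overlapped between the groups. Serpina3n, a secreted protease inhibitor, was between 9.20 and 11.04 in T and between 5.17 and 6.66 in C. Lcn2, which encodes the siderophore-binding lipocalin 2, was between 7.88 and 10.26 in T and between 4.70 and 5.35 in C, and Cxcl13, a chemokine of B cells that is in neither list, between 6.91 and 10.34 in T and between 4.01 and 4.91 in C. These 3 genes had the largest rises of all, of 4.38, 4.32 and 4.59 on the log2 scale.

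Glucocorticoid target genes had the largest share of rises. Of 26 measured genes that these hormones are known to induce in muscle and elsewhere, 18 rose and 1 fell, with a median T minus C of 1.00. Fkbp5, a chaperone of the glucocorticoid receptor and a standard readout of its activity, had levels of 6.51, 6.93 and 7.22 in C and of 8.65, 9.74 and 10.01 in T. The rise was 6.36-fold (log2 2.67, SE 0.30, adjusted p = 2.25e-06), and the groups were far apart. Ddit4, an inhibitor of mTOR, rose by 3.03 on the log2 scale (SE 0.39), from between 5.44 and 6.59 in C to between 7.67 and 9.87 in T. Cdkn1a, the cell cycle inhibitor p21, was at 6.92, 7.44 and 8.01 in C and at 9.33, 9.98 and 11.04 in T, a 6.47-fold rise. Sesn1, another inhibitor of mTOR, was at 6.91, 7.38 and 7.62 in C and at 8.35, 10.01 and 10.22 in T, and the lowest T value belonged to T replicate 3.

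The ubiquitin ligase and atrophy list had 14 of 29 members higher and 2 lower (median 0.45). Fbxo32, Trim63, Cdkn1a, Ddit4, Sesn1, Klf15, Mt1 and Mt2 stand in it and also in the glucocorticoid list. Trim63, the sarcomere ligase MuRF1, had levels of 8.83, 9.03 and 9.47 in C and of 10.08, 10.74 and 11.04 in T, a 2.92-fold rise without overlap (adjusted p = 2.62e-05). Fbxo31, a ligase subunit, rose 3.31-fold (adjusted p = 4.53e-06), from between 7.95 and 8.29 in C to between 9.14 and 10.29 in T. Fbxo32, the ligase atrogin-1, was at 9.79, 10.17 and 10.34 in C and at 10.39, 10.81 and 11.08 in T. Its rise of 1.55-fold only just passed (adjusted p = 0.00967), and without 1 replicate its adjusted p lay above the threshold in 11 of the 12 settings, at up to 0.0295.

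Metal and iron genes moved in both directions, with 9 of 30 measured members higher and 5 lower (median 0.09). The metallothioneins Mt1 and Mt2 bind zinc and other metals, and are known to be induced by metals through metal response elements and by glucocorticoids. Mt2 had levels of 8.68, 9.50 and 10.39 in C and of 11.08, 12.39 and 12.59 in T, a 5.99-fold rise (log2 2.58, SE 0.29, adjusted p = 2.55e-06). Mt1 was at 10.21, 10.50 and 10.89 in C and at 11.69, 12.46 and 12.64 in T, a 3.65-fold rise (adjusted p = 7.65e-07). Neither gene overlapped between the groups, and the lowest T array was T replicate 3 for both. Tfrc, the transferrin receptor through which cells take up iron, moved the other way, with 7.93, 8.77 and 9.45 in C and 4.38, 5.73 and 6.70 in T. It was 8.31-fold lower in T (log2 -3.06, SE 0.39, adjusted p = 8.41e-06). Hmox1, which encodes the haem-degrading haem oxygenase 1, rose 3.75-fold (adjusted p = 0.000625), and its lowest T array, at 5.96, lay inside the C range of 5.59 to 6.38.

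The promoters of both metallothioneins and of Lcn2 are shown because these 3 genes rose without overlap and are textbook targets, the first pair of metal response elements and Lcn2 of C/EBP factors, whose genes Cebpb and Cebpd also rose. The sequences are from RefSeq on GRCm38.p6, cover 250 bases before and 50 after the start of the gene, and run 5′ to 3′ along the strand of the gene. Capitals mark the core of the metal response element (TGCNCNC, on either strand) in Mt1 (chr8:94178839-94179138, + strand) and Mt2 (chr8:94172368-94172667, + strand), and a C/EBP site (TTGCNNAA, on either strand) in Lcn2 (chr2:32387690-32387989, - strand).

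Mt1: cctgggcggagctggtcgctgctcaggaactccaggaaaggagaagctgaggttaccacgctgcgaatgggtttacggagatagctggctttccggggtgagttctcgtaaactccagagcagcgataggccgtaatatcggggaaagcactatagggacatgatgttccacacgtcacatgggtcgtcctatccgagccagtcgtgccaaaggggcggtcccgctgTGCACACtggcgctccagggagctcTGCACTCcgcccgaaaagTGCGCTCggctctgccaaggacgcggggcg
Mt2: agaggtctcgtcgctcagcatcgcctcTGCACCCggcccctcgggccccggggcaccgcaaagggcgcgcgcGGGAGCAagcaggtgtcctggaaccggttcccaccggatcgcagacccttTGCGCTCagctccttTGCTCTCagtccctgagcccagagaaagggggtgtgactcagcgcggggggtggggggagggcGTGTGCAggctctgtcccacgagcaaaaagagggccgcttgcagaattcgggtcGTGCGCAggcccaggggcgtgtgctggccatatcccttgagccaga
Lcn2: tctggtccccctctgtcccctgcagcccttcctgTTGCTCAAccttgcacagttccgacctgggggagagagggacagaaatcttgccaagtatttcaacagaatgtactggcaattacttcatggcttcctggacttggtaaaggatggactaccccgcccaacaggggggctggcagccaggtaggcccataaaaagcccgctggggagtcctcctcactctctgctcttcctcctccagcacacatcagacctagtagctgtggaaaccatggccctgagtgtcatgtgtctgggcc

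Mt2 held 6 matches and Mt1 held 3. The element is short, and 55.0% of the 14749 promoters of the table held at least 1 match, but 0.251% held 6 or more and 8.65% held 3 or more. A C/EBP site was present in 9.82% of all promoters, in 6 of the 38 promoters found for the 50 largest rises (15.8%) and in 6 of the 39 found for the 50 largest falls (15.4%). The STAT site (TTCNNNGAA) was in 1 of the 38 promoters of rises (2.63%) and in 7.86% of all. A match is a description of the letters in this window and not a test of binding.

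**Figure D2:**
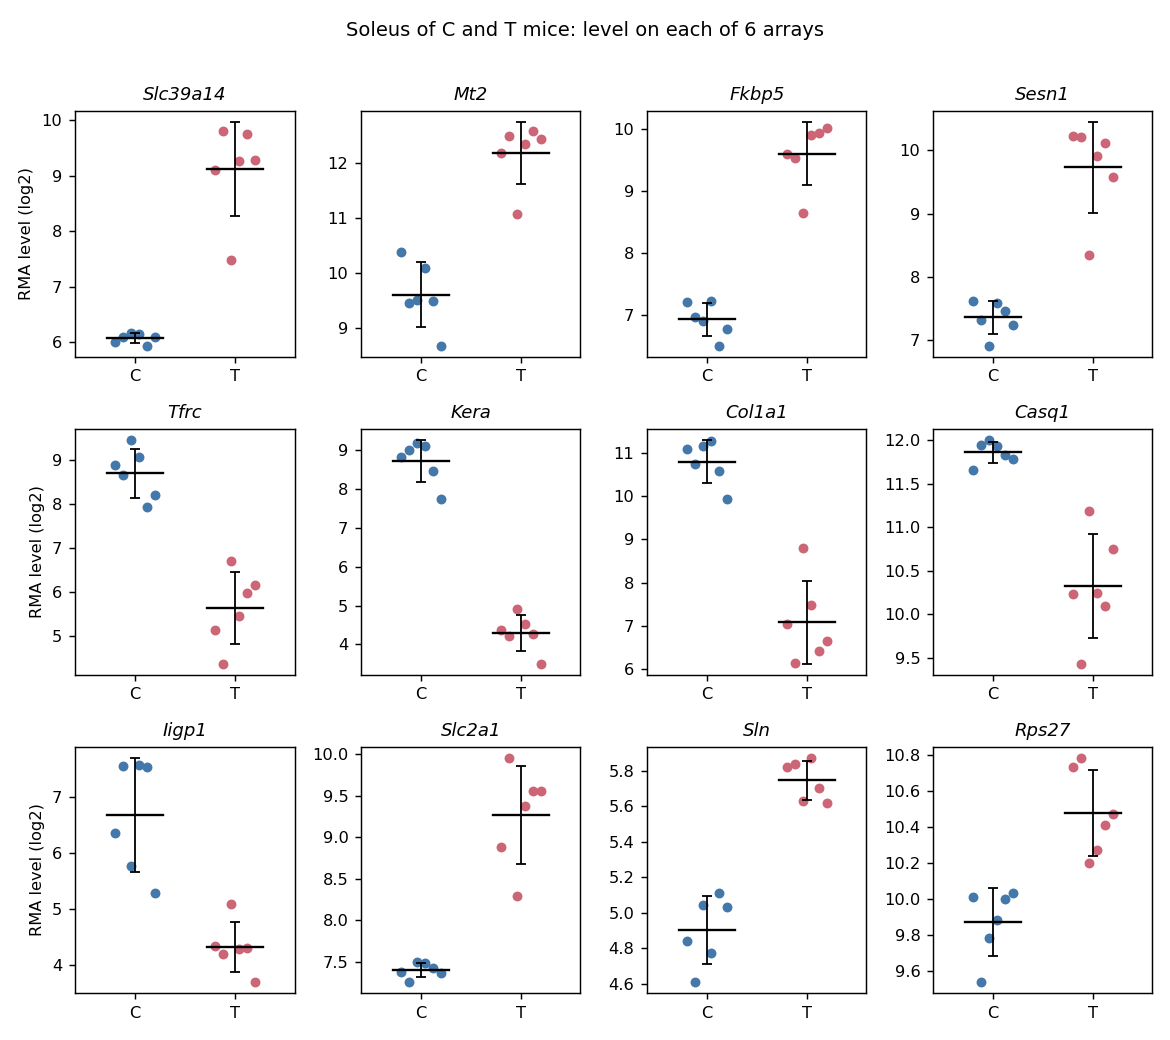
RMA level (log2) of 12 genes on each SOL array of C (blue) and T (red), 1 point per mouse, with the group mean as a line and the SD (n = 6) as a bar. The axes do not start at 0 and differ between panels. No panel has overlapping groups, and T replicate 3 (the third point from the left) is the T array nearest to C for each gene shown but Sln.

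Other genes among the 20 largest rises belong to none of these groups. Fah, the last enzyme of tyrosine breakdown, rose 5.90-fold, from between 5.28 and 5.87 in C to between 6.68 and 9.20 in T (adjusted p = 5.32e-05). Hoga1, an enzyme of hydroxyproline breakdown, rose 4.72-fold (adjusted p = 0.000111). Irs2, an adaptor of the insulin receptor, was at 6.31, 6.53 and 8.46 in C and at 8.84, 9.22 and 9.79 in T. It rose 4.68-fold (adjusted p = 0.00184), and 2 C arrays, at 8.12 and 8.46, lay well above the other 4. Ifi205, a member of an interferon-inducible family, rose 5.06-fold without overlap (adjusted p = 1.46e-06).

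The matrix and the tendon fell together. Of 52 genes for collagens and other extracellular matrix, 30 fell and 2 rose (median T minus C -0.73), and of 22 tendon genes 15 fell and 1 rose (median -1.18). Kera, which encodes keratocan, a proteoglycan of tendon and cornea, had levels of 7.76, 8.91 and 9.19 in C and of 3.50, 4.32 and 4.92 in T. It had the largest fall of all genes, 21.6-fold (log2 -4.43, SE 0.49, adjusted p = 2.25e-06). Tnmd, encoding tenomodulin, a membrane protein of tendon cells, was 17.4-fold lower (adjusted p = 4.98e-06), and Chad, encoding the matrix protein chondroadherin, 13.2-fold lower (adjusted p = 3.74e-05). Col1a2, a chain of type I collagen, was at 9.92, 10.83 and 11.11 in C and at 6.51, 7.29 and 8.81 in T, a 9.35-fold difference (adjusted p = 6.00e-06). Col3a1 and Col6a1, of the collagens around fibres, were 5.01-fold and 3.98-fold lower. None of these genes overlapped between the groups, and the T array nearest to C was T replicate 3 for Col1a1, Col1a2 and Col3a1.

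Fibro-adipogenic cells make much of the collagen of muscle, and of 13 markers of these cells 6 fell and none rose (median -0.43). Col15a1 was 3.16-fold lower (adjusted p = 1.31e-05), Dpp4 2.32-fold lower (adjusted p = 0.00225) and Dpt 1.93-fold lower (adjusted p = 0.00114). Their defining marker, the receptor Pdgfra, was at 7.23, 7.51 and 7.72 in C and at 6.99, 7.49 and 7.99 in T, with a T minus C of 0.04 (SE 0.14, adjusted p = 0.902). In bulk muscle, fewer cells of a type and less RNA per cell cannot be told apart. The mean level of the tendon list ranged from 6.83 to 7.70 on the C arrays and from 5.72 to 6.26 on the T arrays. That of the fibro-adipogenic markers ranged from 7.40 to 7.72 in C and from 6.62 to 7.41 in T. The part of both cell types in the fall of the matrix genes was not tested.

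Sarcomere and fibre type genes did not move as 1 block. Of 23 slow fibre genes 5 rose and 3 fell (median -0.08), whereas of 21 fast fibre genes 1 rose and 11 fell (median -0.48). Of the fast list, Casq1 also stands in the list of calcium release and uptake, and Gpd1 in that of glycolysis and glycogen. Myh7 was at 12.33, 12.39 and 12.48 in C and at 12.00, 12.39 and 12.47 in T, a T minus C of -0.09 (SE 0.07, adjusted p = 0.441). The myosins of fast oxidative fibres had differences that missed the threshold, with Myh2 at -0.24 (SE 0.07, adjusted p = 0.0184) and Myh1 at -0.48 (SE 0.14, adjusted p = 0.0132). Myh2 passed without T replicate 3 (adjusted p = 0.00776), and Myh1 without T replicate 4 (0.00458) or C replicate 1 (0.00971). The defining fast genes Tnnt3, Atp2a1 and Myh4 were not called, with T minus C of -0.06, -0.02 and 0.15. Without T replicate 2, 1 slow gene fell, and without T replicate 3, 5 did.

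Among the fast genes, Pvalb, the calcium buffer parvalbumin, was at 7.84, 8.29 and 8.55 in C and at 4.80, 6.09 and 7.66 in T, a 4.54-fold fall (adjusted p = 0.00367) that missed the threshold without T replicate 2, 5 or 6, at adjusted p of up to 0.0137. Myoz3, a Z-disc protein of fast fibres, fell 3.60-fold without overlap (adjusted p = 2.08e-05). Mylk2, the kinase of the fast myosin light chain, was the exception of the list, with 8.48, 8.91 and 9.17 in C and 9.44, 9.94 and 10.57 in T. It rose 2.09-fold (adjusted p = 8.42e-05), and the groups did not overlap.

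The 5 slow genes that rose include Csrp3, a stretch-responsive protein of the Z-disc, which rose 2.27-fold (adjusted p = 0.000767), and Ankrd2, another stretch-responsive protein, which rose 1.84-fold (adjusted p = 0.000177). Sln, which encodes sarcolipin, a small inhibitor of the calcium pump, was at 4.61, 4.94 and 5.11 in C and at 5.62, 5.76 and 5.87 in T (adjusted p = 0.000242). Its 6 T arrays were close together and all above C. Myh7b, a further slow myosin, went down instead, 2.07-fold (adjusted p = 0.000574).

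Genes of calcium release and uptake had 11 of 28 members lower and 2 higher (median -0.31), with 1 higher without T replicate 2. Casq1, the calcium store protein calsequestrin 1, was at 11.66, 11.88 and 12.00 in C and at 9.43, 10.23 and 11.18 in T, a 2.91-fold fall (adjusted p = 2.76e-05). Sypl2, a protein of the triad membrane, was 2.75-fold lower and Cacna2d1, a subunit of the voltage-gated calcium channel, 1.83-fold lower, and neither overlapped. Of the Z-disc and thick filament genes, 5 of 33 rose and 6 fell (median -0.02), with 3 higher without T replicate 2 and 3 lower without C replicate 5. Ky, a protease-like protein of the Z-disc, fell 7.00-fold (adjusted p = 8.90e-06) from between 7.36 and 8.35 in C to between 3.67 and 6.59 in T, and Lmod3, which nucleates thin filaments, fell 2.76-fold (adjusted p = 7.12e-06).

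A second view of fibre type came from arrays that are in neither group. In the 6 C + WBV mice, 792 genes were higher in SOL than in EDL (4.21%) and 969 were lower (5.15%), and the 100 genes with the largest difference each way were followed in T and C. Of the 100 genes higher in SOL, 20 rose and 18 fell in T (median -0.08). Of the 100 genes lower in SOL, 5 rose and 41 fell (median -0.36). The second median was between -0.29 and -0.36 with 50, 100 or 200 genes. In EDL of the same mice, 6 of these 100 genes rose and 64 fell, with a median of -1.26, where 10.9% of all genes were higher in T and 11.3% lower. The T minus C was higher in SOL than in EDL for 25 of the 100 and lower for 2, by the test of the difference between the muscles that called 0.526% of all genes higher in SOL and 0.866% lower. These genes were chosen for a low level in SOL. Their mean level ranged from 6.10 to 6.30 on SOL arrays of C and from 8.22 to 8.49 on EDL arrays of C. The room to fall was thus not alike in the muscles, and the count is given as a description.

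**Figure D3:**
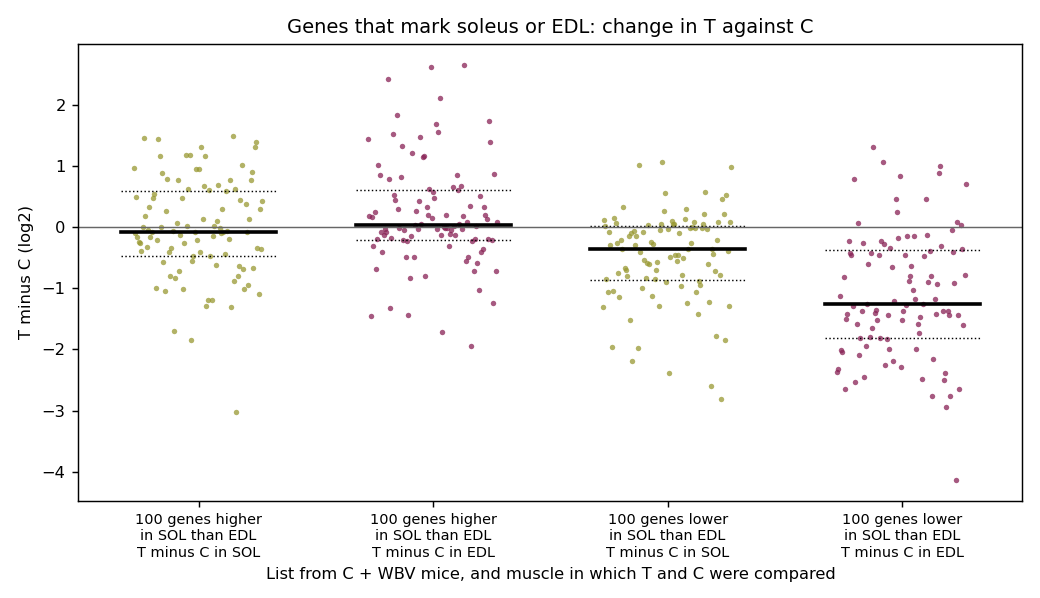
T minus C (log2) of the 100 genes most higher and the 100 most lower in SOL than in EDL of C + WBV mice, 1 point per gene, in SOL (olive) and EDL (purple) of untrained mice. Thick lines are medians and dotted lines quartiles. The medians of the genes higher in SOL are -0.08 and 0.04, and those of the genes lower in SOL are -0.36 in SOL and -1.26 in EDL.

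Genes of energy metabolism fell, and the citrate cycle had the largest share. Of 32 genes of the citrate cycle and of pyruvate entry, 19 fell and 1 rose (median -0.45). Idh3a, the catalytic subunit of isocitrate dehydrogenase, was at 10.89, 10.98 and 11.24 in C and at 9.33, 10.18 and 10.61 in T, a 1.87-fold fall (adjusted p = 0.000145). Pdp1, the phosphatase that activates pyruvate dehydrogenase, fell 2.91-fold (adjusted p = 4.25e-05). Pcx, the pyruvate carboxylase that refills the cycle, was the member that rose, 1.74-fold (adjusted p = 0.00160), with overlapping groups.

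The respiratory chain and the mitochondrial ribosome followed with smaller shares. Of 35 complex I genes 12 fell, of 40 genes of complexes II to V 12 fell, and of 76 genes of the mitochondrial ribosome and transcription 11 fell, with none higher in the 3 lists and medians of -0.37, -0.28 and -0.22. Ndufs1, the largest subunit of complex I, was at 10.14, 10.33 and 10.60 in C and at 8.75, 9.51 and 10.13 in T, a 1.79-fold fall (adjusted p = 0.000608) with the groups just apart. Cox7a1, the muscle form of a cytochrome oxidase subunit, fell 1.74-fold (adjusted p = 0.00150), and its groups overlapped by a small margin. These counts depended on single T mice. Without T replicate 3, 17 complex I genes, 21 genes of complexes II to V and 17 of the mitochondrial ribosome were lower. Without T replicate 5, 7 complex I genes were lower, and without T replicate 2, 6 of the mitochondrial ribosome were.

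Of the coactivators of mitochondrial biogenesis, Ppargc1b was at 6.96, 7.12 and 7.16 in C and at 4.55, 5.26 and 6.37 in T, a 3.28-fold fall (adjusted p = 4.52e-05). Ppargc1a was at 8.25, 8.51 and 9.25 in C and at 7.72, 9.33 and 9.89 in T, with a T minus C of 0.51 (SE 0.30, adjusted p = 0.262). Of the kinases and the deacetylase that act on them or beside them, Prkaa2, the catalytic subunit of AMPK that prevails in muscle, fell 1.61-fold without overlap (adjusted p = 0.000371), whereas Prkaa1 differed by -0.16 (SE 0.09, adjusted p = 0.214), Sirt1 by 0.40 (SE 0.12, adjusted p = 0.0181) and Akt1 by 0.19 (SE 0.11, adjusted p = 0.242). Sirt1 passed without T replicate 3 or 6 or C replicate 2, at adjusted p of 0.00593 to 0.00950.

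Of 34 genes of glycolysis and glycogen 15 fell and 2 rose (median -0.33). Phkg1, the muscle subunit of phosphorylase kinase, fell 3.96-fold (adjusted p = 2.97e-05), and Slc16a3, the lactate exporter MCT4, fell 2.06-fold (adjusted p = 0.000472). Slc2a1, the glucose transporter GLUT1, rose, from 7.26, 7.40 and 7.50 in C to 8.29, 9.46 and 9.95 in T, which is 3.64-fold (adjusted p = 5.24e-06). The C arrays of this gene lay within a narrow band and every T array was above it. Of 38 genes of fatty acid use 7 fell and 2 rose (median -0.31), with 3 lower without T replicate 2 and 12 without T replicate 3. The T arrays were divided. The mean over this list of the level minus the mean of C was -0.97, -0.58 and -0.64 in T replicates 2, 5 and 6. In T replicates 1, 3 and 4 it was 0.03, 0.17 and 0.10, where the C arrays ranged from -0.09 to 0.16. The uncoupling protein Ucp3, at 8.84, 9.12 and 9.49 in C and 5.25, 6.89 and 8.76 in T, only just passed (adjusted p = 0.00995) and did not pass without T replicate 2, 5 or 6 or without any single C array, at adjusted p of up to 0.0348.

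Genes of cytosolic protein synthesis rose. Of 66 cytosolic ribosomal protein genes 35 rose and 1 fell, and 65 of the 66 had a positive T minus C (median 0.34). Rps27 was at 9.54, 9.94 and 10.03 in C and at 10.20, 10.44 and 10.78 in T, a 1.52-fold rise (adjusted p = 0.000187). Rps28 rose 1.76-fold (adjusted p = 0.000183). The gene that fell was Rpl3l, the form of Rpl3 that is particular to striated muscle, which fell 1.49-fold (adjusted p = 0.000944) while Rpl3 itself rose 1.54-fold (adjusted p = 0.000876). Ribosomal protein genes have many processed copies in the genome, and Rps28 and Rpl3 were read by 7 and 6 probe sets, so signal from such copies cannot be told apart. Without C replicate 2, 22 of the 66 passed.

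Of 50 genes of ribosome biogenesis 15 rose and 1 fell (median 0.21), led by Myc, a transcription factor that drives it, with 5.12, 5.47 and 6.14 in C and 7.25, 7.38 and 8.61 in T (4.14-fold, adjusted p = 0.000145). Rrp12 rose 1.96-fold and Gnl3, encoding nucleostemin, 1.71-fold, both without overlap. Of 37 genes of the amino acid stress response and tRNA synthetases 15 rose and 1 fell (median 0.24). Slc3a2, a subunit of amino acid exchangers, was at 8.03, 8.25 and 8.35 in C and at 9.23, 9.62 and 9.77 in T (2.53-fold, adjusted p = 1.40e-06), and without T replicate 5 the list had 8 members higher. Eif4ebp1, a brake on translation initiation, rose 3.04-fold (adjusted p = 4.36e-06), and 11 of 60 translation factor and nuclear pore genes rose and 2 fell (median 0.13), with 7 higher without T replicate 4 and 16 without T replicate 3.

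Genes of protein breakdown rose as well. Of 62 genes of autophagy and lysosomes 20 rose and 5 fell (median 0.14), and without T replicate 2, 2 fell. Gabarapl1, of the ATG8 family on autophagosomes, was at 8.15, 8.35 and 8.40 in C and at 9.39, 9.96 and 10.02 in T (2.81-fold, adjusted p = 1.31e-05), Atp6v1h, of the lysosomal proton pump, rose 3.35-fold (adjusted p = 2.37e-06) and the cargo receptor Sqstm1 1.82-fold (adjusted p = 3.07e-05). Of 48 proteasome genes 9 rose and 2 fell (median 0.16), and 19 of the 48 had a negative T minus C. The rises include Psmd8 (1.70-fold, adjusted p = 1.72e-05) and Psmd4 (1.66-fold, adjusted p = 6.79e-05) of the regulatory cap, and the falls were Psme1, of the activator PA28 that interferon induces (1.74-fold, adjusted p = 0.000229), and Psmb9, a subunit of the immunoproteasome (1.65-fold, adjusted p = 0.00384). Psmb9 did not pass without T replicate 5 or 6 or without C replicate 2, 4 or 5, at adjusted p of up to 0.0137. Without T replicate 3, 14 proteasome genes rose. The mean over the proteasome list of the level minus the mean of C was 0.270 in T replicate 1. It was between 0.031 and 0.082 in the other T arrays. T replicates 2 and 3, at 0.031 and 0.036, lay inside the C range, which reached 0.043.

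Interferon-induced genes moved down. Of 36 members 12 fell and none rose (median -0.50). Iigp1, an interferon-induced GTPase that is not in the list, was at 5.29, 6.95 and 7.57 in C and at 3.71, 4.30 and 5.10 in T (5.11-fold, adjusted p = 0.000185). The guanylate-binding proteins Gbp7 and Gbp3 fell 3.78-fold (adjusted p = 0.000127) and 3.60-fold (adjusted p = 0.000960), and Gbp2 2.20-fold (adjusted p = 0.00275) with overlap. The C arrays themselves spread widely, with Gbp3 between 4.99 and 7.41. Without T replicate 5, 7 of the 36 passed. Of 8 MHC class II genes none passed (median -0.37), and Cd74, their chaperone, differed by -1.18 (SE 0.33, adjusted p = 0.0120) and passed without T replicate 3 or 4 or C replicate 6 (0.00668 to 0.00860).

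Markers of neutrophils rose at low levels. Of 14 members 7 rose, none fell and all 14 had a positive T minus C (median 0.74). Retnlg was at 2.34, 2.61 and 2.89 in C and at 3.86, 4.45 and 5.65 in T (3.76-fold, adjusted p = 2.84e-05), and Mmp8, a collagenase of neutrophil granules, was 3.21-fold higher (adjusted p = 0.000182). S100a8 and S100a9, whose products form calprotectin, rose 3.12-fold (adjusted p = 3.08e-05) and 3.14-fold (adjusted p = 2.37e-06). The defining granule gene Ngp, at 2.25, 2.55 and 2.72 in C and 2.50, 3.18 and 4.26 in T, had a T minus C of 0.79 (SE 0.22) and missed the threshold (adjusted p = 0.0112), which it passed without T replicate 3 (0.00597) or 6 (0.00228). The mean level of the list ranged from 3.11 to 3.34 on the C arrays and from 3.63 to 4.28 on the T arrays. Both ranges are low on a scale whose median gene was at 5.00.

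Other cell types gave fewer calls. Of 19 macrophage markers 1 fell and none rose (median 0.18). That gene was Folr2, which fell 1.74-fold (adjusted p = 0.00594) and did not pass in 6 of the 12 settings without 1 replicate, at up to 0.0209. The defining macrophage gene Adgre1 differed by -0.41 (SE 0.19, adjusted p = 0.127). No member of the adipocyte (15), lymphocyte (13), erythroid (3) or Schwann cell (9) lists passed, and of 12 smooth muscle and pericyte markers 2 fell. Adipoq, the adipocyte hormone, was at 5.16 to 7.29 in C and 5.01 to 6.34 in T, and its highest value was 1 C array.

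Endothelial genes were divided, with 4 of 20 higher and 3 lower (median 0.16). Aplnr, the apelin receptor, was at 6.26, 6.67 and 6.93 in C and at 4.09, 4.41 and 5.36 in T (4.08-fold lower, adjusted p = 3.01e-05), and Kdr, the receptor VEGFR2, fell 2.43-fold (adjusted p = 2.60e-06). Plvap, of the diaphragms of permeable vessels, rose 2.25-fold (adjusted p = 7.85e-05) and Sox17, an arterial transcription factor, 2.03-fold (adjusted p = 6.80e-06). The defining endothelial cadherin Cdh5 was at 9.68, 9.78 and 9.80 in C and at 9.14, 9.53 and 9.92 in T, with a T minus C of -0.21 (SE 0.10, adjusted p = 0.142).

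Clock genes changed in opposing directions, 5 of 17 higher and 4 lower (median 0.18). Npas2, a partner of BMAL1, rose 2.77-fold (adjusted p = 8.13e-05), and Nfil3, a repressor at D-boxes, 6.16-fold (adjusted p = 0.000184). Bhlhe41, a repressor at E-boxes, was at 7.77, 8.14 and 8.44 in C and at 4.56, 6.21 and 6.71 in T (4.43-fold lower, adjusted p = 5.24e-06), and Per3 fell 2.42-fold (adjusted p = 9.85e-05). Arntl, which encodes BMAL1, had a T minus C of 1.52 (SE 0.44) that missed the threshold (adjusted p = 0.0138) and passed without T replicate 1 (0.00397) or 4 (0.00688).

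Of 26 genes of the neuromuscular junction and denervation 4 rose and 3 fell (median -0.10). Runx1, a factor that denervation induces, was at 6.11, 6.43 and 6.72 in C and at 7.04, 7.49 and 7.82 in T (2.09-fold, adjusted p = 0.000125), and Musk, the receptor kinase of the junction, rose 1.84-fold (adjusted p = 0.000286). Myog, encoding myogenin, missed the threshold at a T minus C of 1.34 (SE 0.38, adjusted p = 0.0109) and passed without T replicate 3 (0.00206). Of 33 genes of myostatin, activin and TGF-beta signalling 4 rose and 6 fell (median 0.01). Tgfb2 fell 2.38-fold (adjusted p = 2.75e-05), while Inhbb, which encodes an activin subunit, rose 2.00-fold (adjusted p = 0.00142) and Tgif1, a repressor of SMAD targets, 2.22-fold (adjusted p = 0.000245).

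In insulin, IGF and mTOR signalling 12 of 38 genes rose and 7 fell (median 0.13). Beside the rises of Ddit4, Sesn1 and Irs2 given above, Igfbp5, a binding protein of IGF, was at 9.38, 9.44 and 9.77 in C and at 6.68, 7.26 and 8.47 in T (4.16-fold lower, adjusted p = 8.90e-06). Grb14, which blocks the insulin receptor, fell 5.04-fold (adjusted p = 2.55e-06) and Ddit4l, a relative of Ddit4, 5.21-fold (adjusted p = 2.18e-05). The paralogues Ddit4 and Ddit4l thus moved in opposite directions, both without overlap. Of 24 polyamine and purine genes 5 rose and 9 fell. Nt5c1a, which dephosphorylates AMP, fell 3.13-fold (adjusted p = 4.92e-06), while Sat1, which starts polyamine breakdown, rose 2.87-fold (adjusted p = 0.000119) and Gda, which deaminates guanine, 2.89-fold (adjusted p = 1.46e-06).

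Where SOL differed from EDL was tested on the 46 arrays of both muscles with the mouse as a random block. The test is of the signed T minus C, so a gene that fell only in EDL counts as higher in SOL. T minus C was higher in SOL for 99 genes (0.526%) and lower for 163 (0.866%), 262 in all. The count was 549 without T replicate 3, 128 without C replicate 2 and 117 without the mouse as a block. Among atrophy genes, Fbxo32 was at 9.30, 9.96 and 10.36 in EDL of C and at 11.72, 12.18 and 12.24 in EDL of T, a T minus C of 2.21 (SE 0.23) against 0.63 in SOL. The difference between the muscles was -1.58 (SE 0.30, adjusted p = 0.000919). Trim63 differed by -1.11 (SE 0.37) between the muscles, which did not pass (adjusted p = 0.0741). Akt1 had a T minus C of 1.19 in EDL and 0.19 in SOL, and that difference passed (adjusted p = 0.00206).

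In the other direction, 3 genes of metabolism and contraction moved in SOL beyond their change in EDL. Slc2a1 rose by 1.86 in SOL and 0.72 in EDL on the log2 scale (difference 1.14, SE 0.27, adjusted p = 0.00885). Mylk2 rose by 1.06 in SOL and differed by 0.25 in EDL (difference 0.81, SE 0.17, adjusted p = 0.00372). Prkaa2, at 10.36, 10.43 and 10.52 in EDL of C and 10.17, 10.52 and 10.67 in EDL of T, differed by 0.01 there and by -0.68 in SOL (difference -0.69, SE 0.14, adjusted p = 0.00168). The fall of this AMPK subunit was thus present in SOL and not detected in EDL, and the 2 effects differed.

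**Figure D4:**
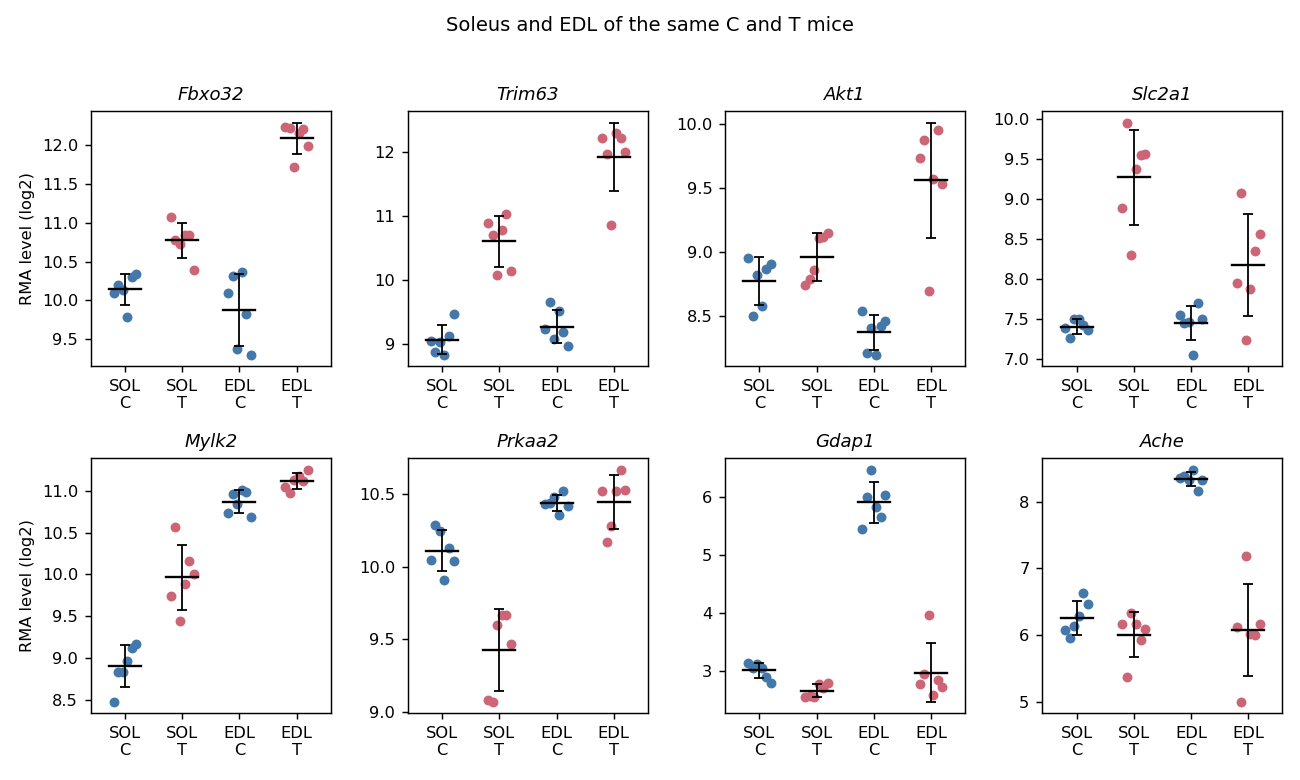
RMA level (log2) of 8 genes in SOL and EDL of C (blue) and T (red), 1 point per mouse, with the group mean as a line and the SD (n = 6) as a bar, on axes that do not start at 0. Fbxo32 and Akt1 rise more in EDL, Slc2a1 and Mylk2 more in SOL, Prkaa2 falls in SOL, and Gdap1 and Ache fall in EDL from levels that SOL of C does not reach.

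The 10 largest differences between the muscles were led by genes that fell in EDL. Gdap1, a protein of the outer mitochondrial membrane, was at 2.79, 3.06 and 3.13 in SOL of C and at 2.55, 2.64 and 2.79 in SOL of T, whereas in EDL it went from between 5.45 and 6.47 in C to between 2.58 and 3.97 in T. The difference was 2.58 (SE 0.33), and in SOL the level lay near the 5th percentile of all genes in both groups. Pld5, Itga4, Cyp4f39 and Ache, the acetylcholinesterase of the junction, showed the same order, with falls of between 2.26 and 2.65 in EDL on the log2 scale and a SOL T minus C of between -0.29 and 0.12 that did not pass. Vegfd, a lymphatic growth factor, rose in both, by 0.47 in SOL (adjusted p = 0.00135) and by 2.42 in EDL, and the difference was -1.96 (SE 0.35). Mettl21c, a protein methyltransferase of muscle, fell by 1.45 in EDL and differed by 0.50 in SOL (adjusted p = 0.129). Mc5r, a melanocortin receptor, Sox4 and Zim1 complete the 10, with differences of -1.94, -1.89 and -2.02 that were lower in SOL.

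Trained mice gave the tumour contrast in SOL a second time, on arrays that T and C do not share. In T + WBV against C + WBV, 366 genes were higher (1.94%) and 313 lower (1.66%). Of the genes called in T against C, 322 were also higher (33.8% of the 952, 88.0% of the 366) and 305 were also lower (18.7% of the 1629, 97.4% of the 313), and 0 were called in opposite directions. Kera was lower by 2.74 on the log2 scale in T + WBV (adjusted p = 0.00176), Slc39a14 was higher by 2.45 (adjusted p = 0.000370) and Sln was higher by 1.18 (adjusted p = 6.15e-05). For Prkaa2 the trained contrast was -0.32 (adjusted p = 0.146), and for Fbxo32 it was 0.72 (adjusted p = 0.0138). The interaction of tumour and training in limma called 0 genes, with 838 at an unadjusted p under 0.05 and a smallest adjusted p of 0.986, so no gene was shown to differ in its tumour effect between untrained and trained mice. The trained count rested on single mice, with 1454 calls without T + WBV replicate 2 and 200 without T + WBV replicate 3.

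The array also carries miRNA genes, which were chosen for description after their values were seen. It reads the transcript of the locus and not the mature miRNA. Of 278 loci measured, 6 (2.16%) were higher and 5 (1.8%) lower in T, shares below those of all genes (5.06% and 8.66%), so the loci as a set did not stand out and the few that passed are given as single values. Mature sequences from RefSeq (GRCm38.p6) are shown for the muscle miRNA miR-133b, its neighbour miR-206, and the miR-181 pair on chromosome 2. Seeds (bases 2 to 8) are in capitals.

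mmu-miR-133b-3p (chr1:20682834-20682855, + strand): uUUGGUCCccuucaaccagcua
mmu-miR-206-3p (chr1:20679055-20679076, + strand): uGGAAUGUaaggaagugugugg
mmu-miR-181a-5p (chr2:38852741-38852763, + strand): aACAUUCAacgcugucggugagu
mmu-miR-181b-5p (chr2:38853845-38853868, + strand): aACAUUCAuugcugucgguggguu

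The miR-181 pair shares the seed ACAUUCA, and the 2 loci fell together. Mir181b-2 was at 5.22, 5.84 and 6.43 in C and at 3.03, 3.65 and 4.44 in T (4.27-fold lower, adjusted p = 0.000381), and Mir181a-2 was 2.79-fold lower (adjusted p = 0.00193). Neither overlapped between the groups, and both were also lower in EDL, by 2.51 and 1.81 on the log2 scale. Mir133b, at 5.21, 6.06 and 6.81 in C and 6.46, 7.74 and 8.39 in T, was 2.81-fold higher (adjusted p = 0.00354) with overlap, and differed by 0.08 in EDL, but the difference between the muscles missed the threshold (1.41, adjusted p = 0.0216). Mir206, which lies on the same strand beside it, was at 2.25 (median) in C and 3.18 in T. Its T minus C was 0.87 (SE 0.30, adjusted p = 0.0393). Mir1a-1, a further muscle miRNA locus, differed the other way, by -1.55 (SE 0.52, adjusted p = 0.032), and did not pass either. The remaining 8 loci that passed had T minus C between -0.95 and 0.92.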

How the data were processed

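RNA of SOL and EDL of each mouse had been hybridised by the authors to an Affymetrix Mouse Gene 1.1 ST array. The deposited values are log2 intensities that the authors normalized with RMA (version not given in the sources used here); they were used as deposited, and 0 columns of the table were left unused. Of 35556 probe sets, 21218 carried 1 symbol in the platform annotation, 1881 carried several and 12457 none. Probe sets of 1 symbol were averaged to 18820 genes. Probe sets with several symbols or none were left out.

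SOL was fitted with limma 3.58.1 in R 4.3.3 on its 23 arrays, with the 4 groups as terms and an intensity-dependent prior variance. P-values were adjusted after Benjamini-Hochberg over all genes, and genes under 0.01 were called. SE is the moderated standard error of the fit. Differences between SOL and EDL were fitted on 46 arrays with the mouse as a random block. The fit was tested on simulated data. Array number limits the precision, as the spread within a group rests on 6 mice or fewer.

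Named genes were the 20 largest rises and falls, up to 6 members of each list, the 10 largest differences between muscles, defining fibre genes and marker genes, and genes the study names. The comparison, the 43 lists and the tests were chosen with earlier results of these data known. Motifs were searched on both strands of RefSeq promoters (250 bases before to 50 after the start). Replicate numbers do not pair T with C mice in the labels. Alternatives were other variance priors, including an intensity-based moderated test as in the study's methods, fewer or more arrays, a second quantile normalization, median centring, a filter on low levels, all probe sets, array weights, the replicate block and leaving out each mouse.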

Additional observations from a re-analysis of the deposited data

Results flagged for a closer look

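Of 342 groups of 6 arrays that were examined for the named genes, 22 (6.43%) had a lowest or highest array that stood apart by Dixon's ratio of its gap to the range of the group, where chance gives about 1 in 20. T replicate 3 stood apart, on the side of C, for Slc39a14 (ratio 0.701), Mt2 (0.727), Mt1 (0.691), Sesn1 (0.653), Fkbp5 (0.643), Sqstm1 (0.690) and Cry2 (0.721). T replicate 2 stood apart for Myc (0.763), Mylk4 (0.690), Idh3a (0.637) and Cd3e (0.644), in each case away from the C mean, and T replicate 4 for Myh4 (0.680), at 9.22 where the next array was at 7.24. In C, replicate 3 stood apart for Nfil3 (0.669), Igfbp5 (0.774) and Nes (0.646), replicate 5 for Myl6b (0.644), Cd68 (0.636), Sox17 (0.707) and Adipoq (0.761), replicate 6 for Cebpb (0.694) and Serpinf1 (0.793), and replicate 2 for Psmd8 (0.655). What set these arrays apart was not tested.

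The tumour effect differed between SOL and EDL, in limma with the mouse as a block, for 15 of the named genes. T minus C was higher in SOL than EDL for Gdap1 (2.58 on the log2 scale), Pld5 (2.43), Itga4 (2.36), Cyp4f39 (2.33) and Ache (2.01). These genes fell in EDL, with a T minus C of between -2.93 and -2.26 there and between -0.35 and 0.12 in SOL. All are among the 100 genes lower in SOL than in EDL of C + WBV mice. T minus C was also higher in SOL for Mettl21c (1.94), Slc2a1 (1.14) and Mylk2 (0.81). It was lower in SOL for Zim1 (-2.02), Vegfd (-1.96), Mc5r (-1.94), Sox4 (-1.89), Fbxo32 (-1.58), Akt1 (-1) and Prkaa2 (-0.69).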

How the results depend on the processing

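The number of genes called in T against C stayed within 1.5 times of 2581 under each alternative run, from 2360 with the replicate block to 3199 with EDL and SOL fitted together. Leaving out 1 mouse gave 1953 to 3065 calls, 724 to 1153 of them higher and 1229 to 1912 lower, fewest without T replicate 2 and most without T replicate 3. A second quantile normalization gave 2541 calls, of which 2302 were among the 2581. The split by direction moved more than the total. It was 952 higher and 1629 lower in the main fit, and 1177 and 1364 with the second quantile normalization. With arrays centred on their median it was 1049 and 1516. The excess of falls over rises thus depended in part on the normalization.

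T + WBV against C + WBV gave 200 to 1454 calls without 1 mouse, 129 to 687 of them higher and 71 to 767 lower. The difference between SOL and EDL gave 117 calls without the mouse block, 51 higher in SOL and 66 lower, and 128 to 549 without 1 mouse, 54 to 212 higher and 69 to 337 lower. Tumour by training gave 0 calls throughout in limma.

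Of 171 named genes, 136 were called, 127 of them in every setting without 1 mouse. Fbxo32, Comp, Pvalb, Casq2, Ucp3, Psmb9, Folr2, Nes and Gdap1 each missed the threshold in at least 1, and no called gene changed sign. Another 11 were not called but passed in at least 1 such setting (Tnnt1, Myh2, Myh1, Mybpc2, Ppp1r3c, Cd74, Ngp, Arntl, Myog, Mc5r and Sirt1). Counts of 2 lower members dropped to 1 without at least 1 mouse in the acute phase, ubiquitin ligase, proteasome, translation factor and smooth muscle lists. Some genes that were not called changed sign between settings. Without T replicate 4, T minus C of Myh4 was -0.27, where the main fit gave 0.15. With the second quantile normalization T minus C was 0.08 for Atp2a2, 0.04 for Tnnt3, 0.06 for Atp2a1 and 0.03 for Adipoq. Without 1 mouse it ranged from -0.03 to 0.05 for Atp2a2, -0.27 to 0.31 for Myh4, -0.05 to 0 for Atp2a1, -0.18 to 0.24 for Adipoq, -0.05 to 0.14 for Pdgfra, -0.25 to 0.01 for Cd3e and -0.01 to 0.33 for Sox4.

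The labels give no pairing of the mice by replicate number. Deviations of same-numbered T and C arrays correlated between -0.08 and 0.14, and 3 of 6 T arrays correlated best with their own number. Whether same-numbered mice shared a condition was not tested. With the replicate block, 2277 of the 2581 calls remained. No detection call comes with the values, so whether a gene near 2.31, the 5th percentile, was above background is not known here.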

Other observations

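Further lists had members in both directions. Of 34 heat shock and chaperone genes 5 rose and 2 fell, but 2 rose without T replicate 2 and none fell without T replicate 1. Of 31 antioxidant genes 4 rose and 3 fell, and of 30 complement and coagulation genes 2 rose and 2 fell. In the complement and coagulation list, T minus C was positive for 20 members and negative for 10 (median 0.20). Serpinf1, given below, is 1 of the 2 that fell. Of 29 cell cycle genes 3 rose and 3 fell. Of 23 regeneration and satellite cell genes 2 rose and 2 fell, with 1 higher without T replicate 2 and 1 lower without T replicate 1. Thbd, which encodes the anticoagulant receptor thrombomodulin, rose 1.87-fold without overlap (adjusted p = 0.000752), and Serpinf1, a secreted inhibitor of vessel growth, was at 9.33, 10.03 and 10.11 in C and at 6.82, 7.81 and 8.59 in T, a 4.30-fold fall (adjusted p = 8.25e-05 in limma).

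Several genes among the largest falls belong to no list. Nrep, a protein first described in regenerating neurons, was 8.65-fold lower in T (adjusted p = 6.77e-07), and Frzb, a secreted WNT antagonist, 6.28-fold lower (adjusted p = 5.17e-07). Itgb6, an integrin chain, was at 8.86, 9.08 and 9.16 in C and at 5.44, 5.85 and 8.17 in T. Nmrk2, a nicotinamide riboside kinase of muscle, fell 5.84-fold (adjusted p = 2.84e-05), and Aqp4, the water channel of fast fibres, 4.58-fold (adjusted p = 5.26e-05). None of these overlapped between the groups.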
